A study of Mus musculus with 18 samples.

Results

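Fgfr1, Fgfr2, Fgf1, Igf1, Igf1r, Igfbp2, Igfbp5, Ntrk2, Ntrk3 and Vegfa encode ligands, receptors and binding proteins of the fibroblast growth factor, insulin-like growth factor, neurotrophin and vascular endothelial growth factor pathways. They were followed here in brains of mice labelled as lacking an estrogen receptor. The 10 genes were taken by their platform gene symbol and are read by 39 of the 45037 non-control probe sets of the array. A probe set is a group of short probes that together give 1 signal. For each gene the probe set given first was chosen by its mean signal over all 18 arrays, the highest of the gene, which takes no account of genotype. All 10 genes passed the filter on low signals through that probe set, as did 33 of the 39 probe sets, and the other 6 are described as well.

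Whole brains of 8-week-old C57BL/6 mice were compared between wild type, ERalphaKO and ERbetaKO, the last 2 being labelled as knockouts of estrogen receptor alpha (gene Esr1) and estrogen receptor beta (gene Esr2). Each genotype has 3 female and 3 male samples, 18 arrays in all. No treatment is named in the labels, and they do not give the knockout alleles or say that each sample came from a separate animal. The p-values therefore measure the spread between these samples, which may be technical in part. The number of arrays limits the precision.

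Fibroblast growth factors, insulin-like growth factors, neurotrophins and vascular endothelial growth factors are secreted proteins that bind receptor tyrosine kinases at the cell surface and switch on the RAS to MAP kinase and the PI3 kinase to AKT cascades. Insulin-like growth factor binding proteins hold the ligand in the extracellular fluid and set how much of it reaches its receptor. In brain these pathways are known for their part in the survival of neurons, myelination, the growth of blood vessels and synaptic plasticity, and Igf1 is a known estrogen-responsive gene in several tissues.

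Promoters of 7 of the 10 genes, with 9 start sites among them, were read from RefSeq's promoter table (build GRCm38.p6). Fgfr1 and Ntrk3 had no entry. Fgf1 was left out of the promoter search, so nothing is said here of its promoter. The 250 bases before the start are shown for Igfbp5 and Fgfr2, because their signals changed between groups of arrays, and for Igf1 because of its known response to estrogen. Capitals mark the estrogen response element half-site, TGACC on either strand, which reads GGTCA on the strand shown. Igfbp5 lies at chr1:72874866-72875115 on the minus strand, Fgfr2 at chr7:130266809-130267058 on the minus strand and Igf1 at chr10:87860861-87861110 on the plus strand.
Igfbp5: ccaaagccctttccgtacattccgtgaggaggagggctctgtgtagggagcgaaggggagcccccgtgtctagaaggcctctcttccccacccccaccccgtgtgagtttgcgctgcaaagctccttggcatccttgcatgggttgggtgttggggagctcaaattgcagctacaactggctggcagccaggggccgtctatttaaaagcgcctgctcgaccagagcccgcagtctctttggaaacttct
Fgfr2: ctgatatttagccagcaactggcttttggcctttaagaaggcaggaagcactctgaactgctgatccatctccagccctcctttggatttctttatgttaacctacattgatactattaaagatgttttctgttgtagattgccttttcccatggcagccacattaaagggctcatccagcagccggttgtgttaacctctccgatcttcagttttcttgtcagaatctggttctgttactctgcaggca
Igf1: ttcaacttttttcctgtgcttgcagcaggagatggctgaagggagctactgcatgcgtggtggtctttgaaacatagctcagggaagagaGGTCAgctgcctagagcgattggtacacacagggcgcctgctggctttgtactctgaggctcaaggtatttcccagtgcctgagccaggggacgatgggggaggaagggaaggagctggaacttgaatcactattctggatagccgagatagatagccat
The half-site letters stood in the promoters of 3 of the 7 genes, Igf1, Igf1r and Igfbp2, where the first base lay 160, 86 and 31 bases before the start (for Igfbp2 before the second of its start sites). Of all 32851 promoters searched, 35.2% held it. That share counts each start site by itself, whereas the 3 of 7 counts genes, over any of their 9 start sites. The full element, GGTCANNNTGACC, which contains the half-site on both strands, was in 0 of the 7 and in 0.0639% of all promoters. A match is a description of letters in this window and does not say that a receptor binds there.

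The Esr2 probe set ran against its label, with a signal of 271 ± 98.0 (SD, n = 6) on ERbetaKO-labelled arrays, beside 28.7 ± 11.4 in wild type and 33.2 ± 22.6 on ERalphaKO-labelled arrays. The 3 Esr1 probe sets were not lower together in ERalphaKO-labelled arrays, with means of 129 against 143, 230 against 141 and 65.0 against 38.6 in wild type. Where these probe sets lie relative to the deletions is not known here, so the groups are called by their labels throughout and every direction rests on the labels. The signal of Pcp2, a gene of cerebellar Purkinje cells, ran from 117 to 10790. It was below 500 on 7 arrays, of which 2 were wild type, 2 were from the ERalphaKO-labelled group and 3 from the ERbetaKO-labelled group. The array's Actb control ratio of 3' to 5' signal, a measure of RNA quality, averaged 1.20 ± 0.0209 in the wild type group, 1.28 ± 0.0786 in the ERalphaKO-labelled group and 1.48 ± 0.182 in the ERbetaKO-labelled group. Its lowest ERbetaKO-labelled value, 1.34, was above the highest wild type value, 1.23. In whole tissue, fewer cells of a type and less RNA per cell cannot be told apart.

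Among the 10 genes, Fgfr1 and Igfbp5 fell in ERbetaKO-labelled brains, to 0.54 and 0.75 of the wild type level on the log2(signal + 63.6) scale on which all differences are given. Of the 10, 2 passed the test in this comparison, both lower, where 7.5% of the 13072 genes tested passed (4.58% lower and 2.91% higher). In ERalphaKO-labelled brains 0 of the 10 passed the test in limma, where 6.7% of all genes did (3.07% higher and 3.63% lower), and 0 of the 10 had an unadjusted p under 0.05. Nor did any of the 10 lie wholly above or below its 6 wild type values there, as 4.65% of all genes did. Between the groups labelled as knockouts 2 of the 10 passed, Fgfr1 higher and Fgfr2 lower in ERalphaKO-labelled brains, where 15.4% of all genes did (6.27% higher and 9.11% lower). The median log2 difference of the 10 genes was -0.11 for ERalphaKO-labelled and -0.10 for ERbetaKO-labelled brains, beside medians of -0.03 and 0.01 over all genes tested. Both comparisons use the wild type arrays. Adjusted p-values are from limma, over all genes tested, and a gene is said to have risen, fallen or passed where its adjusted p was under 0.05.

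**Figure D1:**
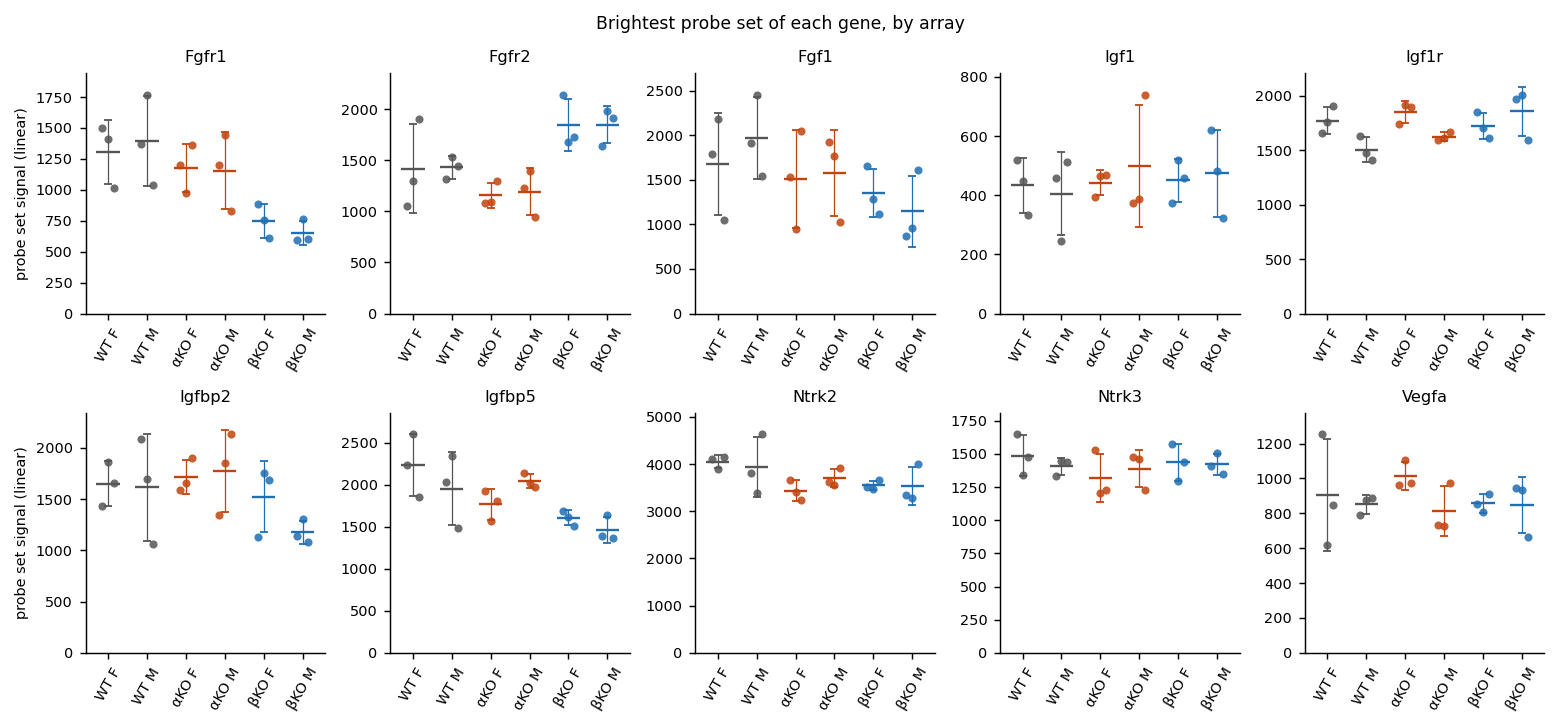
Signal of the first probe set of each of the 10 genes on each of the 18 arrays (linear axis from 0, arbitrary units), by labelled genotype and sex; points are arrays and bars are the mean and SD of the 3 arrays of a group. The 6 ERbetaKO-labelled Fgfr1 values, 591 to 887, lie below the lowest wild type value of 1013, while the 6 ERalphaKO-labelled Fgfr2 values, up to 1399.9, lie below the ERbetaKO-labelled ones, from 1644.

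**Figure D2:**
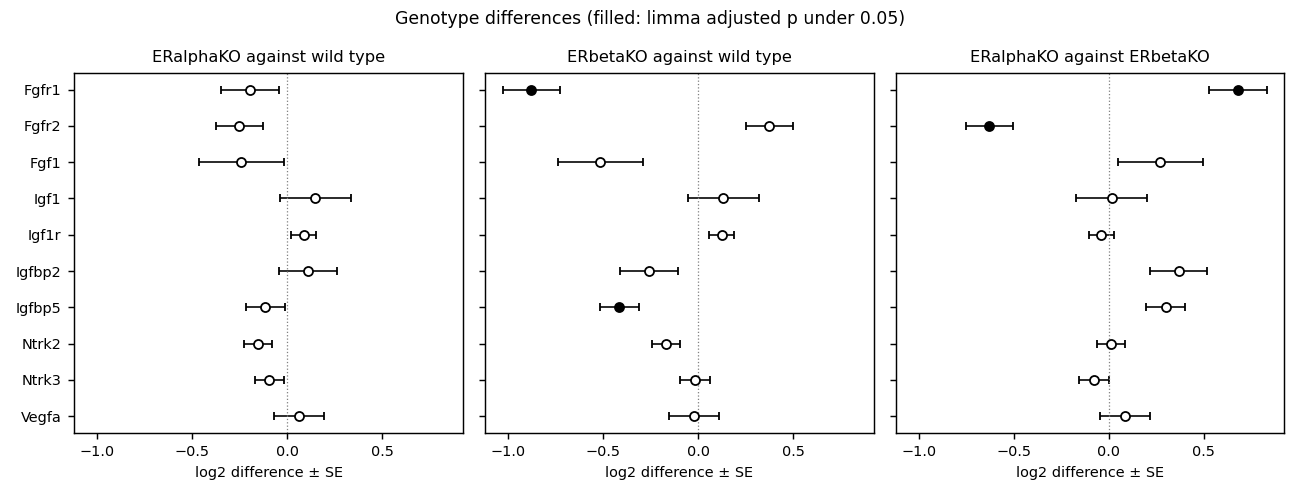
Log2 differences of the 10 genes in the 3 genotype comparisons, with their SE as bars; filled points passed the threshold. Fgfr1 (-0.88) and Igfbp5 (-0.42) are filled in ERbetaKO-labelled against wild type brains and none in ERalphaKO-labelled against wild type brains.

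Fgf1, acidic fibroblast growth factor, binds all fibroblast growth factor receptors. Its wild type signals were 1793, 2179 and 1052 in females and 1911, 2449.6 and 1541 in males. In ERalphaKO-labelled brains they were 1536, 945 and 2048 in females and 1925, 1768 and 1025 in males. In ERbetaKO-labelled brains they were 1649.7, 1289 and 1114 in females and 873, 959 and 1607 in males. The order of the means was wild type, ERalphaKO-labelled, ERbetaKO-labelled, and all 3 overlapped. Neither difference from wild type passed, at -0.24 ± 0.22 (SE, adjusted p = 0.551) for the ERalphaKO label and -0.51 ± 0.22 (adjusted p = 0.160) for the ERbetaKO label. Arrays with weak Pcp2 signal stood low. In wild type the 4 arrays with Pcp2 of at least 500 read 1793 to 2449.6 and the other 2 read 1052 and 1541. On ERalphaKO-labelled arrays the ranges were 1536 to 2048 and 945 to 1025. The ERbetaKO-labelled ranges, 959 to 1649.7 and 873 to 1289, overlapped. The second Fgf1 probe set gave -0.06 and -0.17, neither past the threshold, and the third, at means of 34.3 to 41.1, lay under the pseudocount.

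Fgfr1, a receptor for fibroblast growth factors carried by neurons and glia, had wild type signals of 1501, 1407 and 1013 in females and 1368, 1766 and 1042 in males. The ERalphaKO-labelled signals were 1201, 976 and 1361 in females and 1198, 1441 and 825 in males. The ERbetaKO-labelled signals were 887, 753 and 608 in females and 591, 763 and 599 in males. All 6 ERbetaKO-labelled values lay below all 6 wild type values, a separation in either direction that 4.06% of the genes tested showed, whereas the ERalphaKO-labelled values overlapped those of both other groups. Fgfr1 fell by 0.88 ± 0.15 (SE, adjusted p = 0.00394) in ERbetaKO-labelled brains, by 0.75 in females and 1.00 in males. It was higher by 0.68 ± 0.15 (adjusted p = 0.00989) in ERalphaKO-labelled than in ERbetaKO-labelled brains, and differed by -0.20 ± 0.15 (adjusted p = 0.466) from wild type in ERalphaKO-labelled ones.

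Fgfr1 signals were also lower where cerebellar signal was weak. In wild type the 4 arrays with Pcp2 of at least 500 read 1368 to 1766 and the other 2 read 1013 and 1042. In ERbetaKO-labelled arrays the ranges with and without strong Pcp2 were 599 to 887 and 591 to 753. On the 11 arrays with Pcp2 of at least 500 the difference from wild type was -0.90, and it was -0.74 with a cerebellar marker score as covariate, past the threshold both times. With the Actb ratio as covariate it was -0.95 and did not pass (adjusted p = 0.112). It passed without each of the 18 arrays in turn.

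The other 2 Fgfr1 probe sets were lower as well, neither past the threshold. The second gave 983, 1347 and 1028 in wild type females and 1058, 1201 and 1007 in males, against 980.3, 779 and 578 in ERbetaKO-labelled females and 652, 691 and 684 in males. All 6 values were again below the wild type ones, by -0.57 ± 0.16 (adjusted p = 0.0554, over all probe sets). In ERalphaKO-labelled brains this probe set read 826 to 1632, and it was higher there than in ERbetaKO-labelled brains by 0.68 ± 0.16 (adjusted p = 0.0163). The third differed by -0.25 ± 0.12 (adjusted p = 0.254). The suffix of the second probe set means that its probes may match transcripts of more than 1 gene.

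Fgfr2, a receptor prominent in oligodendrocytes and astrocytes, had wild type signals of 1054, 1300.0 and 1903 in females and 1314, 1536 and 1441 in males. The ERalphaKO-labelled signals were 1082, 1090.3 and 1302 in females and 1229, 1399.9 and 949 in males. The ERbetaKO-labelled signals were 2139, 1675 and 1728 in females and 1644, 1984 and 1915 in males. The order of the means was thus ERbetaKO-labelled, wild type, ERalphaKO-labelled, and all 6 ERalphaKO-labelled values lay below all 6 ERbetaKO-labelled ones, as 5.85% of genes showed in one direction or the other. Fgfr2 was lower by -0.63 ± 0.12 (SE, adjusted p = 0.00552) in ERalphaKO-labelled than in ERbetaKO-labelled brains. Wild type overlapped both, with 3 of the 6 ERbetaKO-labelled values above its highest. Against wild type the differences were -0.25 ± 0.12 (adjusted p = 0.229) and 0.38 ± 0.12 (adjusted p = 0.0726). The last passed without the third wild type female array, the highest of its group, at 0.49 (adjusted p = 0.0171), and on the 11 arrays with strong Pcp2, at 0.64 (adjusted p = 0.0291).

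The second and the third Fgfr2 probe sets did not show this. Between the groups labelled as knockouts they differed by 0.050 ± 0.11 and 0.034 ± 0.17, opposite in sign to the first. The second had means of 920.1 ± 192 (SD, n = 6) in wild type, 1019.5 ± 89.4 on ERalphaKO-labelled and 984 ± 110 on ERbetaKO-labelled arrays. The probes of the first may also match more than 1 gene by its suffix, so the difference belongs to that probe set and not to every Fgfr2 transcript measured.

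**Figure D3:**
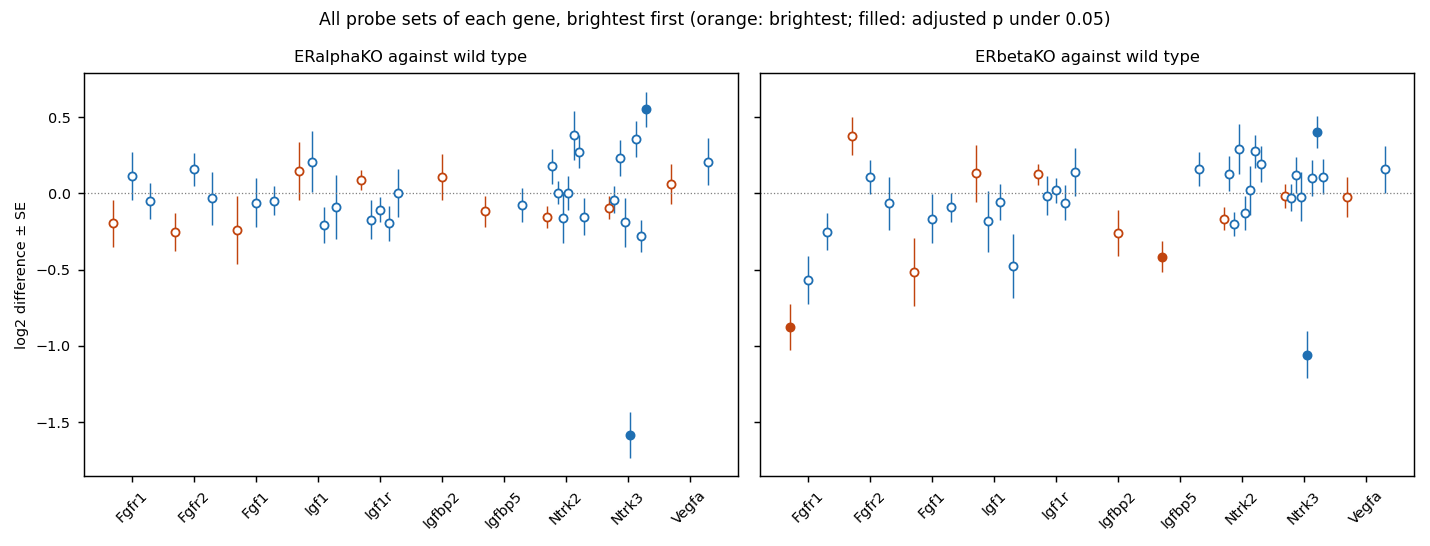
Log2 differences of all 39 probe sets of the 10 genes against wild type, in ERalphaKO-labelled (left) and ERbetaKO-labelled brains (right), with their SE as bars; each point is 1 probe set, the first of each gene is orange, and filled points passed the threshold. The 3 Fgfr1 probe sets are all below 0 in ERbetaKO-labelled against wild type brains (-0.88, -0.57 and -0.25), whereas those of Ntrk3 spread there from -1.06 to 0.40.

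Igf1, the ligand of the insulin-like growth factor 1 receptor, differed by 0.15 ± 0.19 (SE, adjusted p = 0.682) in ERalphaKO-labelled and 0.13 ± 0.19 (adjusted p = 0.698) in ERbetaKO-labelled brains. Its signals were 247 to 520.1 in wild type (median 452), 373 to 739 on ERalphaKO-labelled (median 430.5) and 324 to 619 on ERbetaKO-labelled arrays (median 469.8), so the 3 groups overlapped. The highest value, 739, was that of the third ERalphaKO-labelled male, which also read 879 with the second Igf1 probe set, against 259 to 475 in the other 5 of its genotype. The 3 other probe sets gave 0.21, -0.21 and -0.09 in ERalphaKO-labelled and -0.18, -0.06 and -0.48 in ERbetaKO-labelled brains, none past the threshold.

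Igf1r, the receptor for insulin-like growth factors, had the smallest SE of the 10 genes. Its signals were 1657, 1756 and 1906 in wild type females and 1630.3, 1477 and 1407 in males, 1741, 1920.0 and 1897 in ERalphaKO-labelled females and 1590.2, 1616 and 1671 in males, and 1848, 1704 and 1614 in ERbetaKO-labelled females and 1969, 2007 and 1598 in males. The order of the means was ERbetaKO-labelled, ERalphaKO-labelled, wild type, with all 3 groups overlapping. The differences from wild type were 0.09 ± 0.07 (SE, adjusted p = 0.476) in ERalphaKO-labelled and 0.12 ± 0.07 (adjusted p = 0.264) in ERbetaKO-labelled brains. In wild type and in ERalphaKO-labelled brains all 3 females read above all 3 males, and in ERbetaKO-labelled brains the sexes overlapped. The test of that difference between the sexes in the ERbetaKO-labelled effect gave -0.33 ± 0.13 with an unadjusted p of 0.0262, which did not pass once adjusted (adjusted p = 1.00). A further Igf1r probe set ran the other way by sex, lower in females by -0.28 (unadjusted p = 0.000552, adjusted p = 0.469), in a fit where 0.0333% of all probe sets passed.

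Igfbp2, a binding protein made by glia and the choroid plexus, had signals of 1433, 1864 and 1656 in wild type females and 2081, 1698 and 1058 in males. The ERalphaKO-labelled signals were 1588, 1660.0 and 1899 in females and 1346, 1847 and 2130.0 in males. The ERbetaKO-labelled signals were 1129.6, 1756 and 1685 in females and 1142, 1302 and 1082 in males. The groups overlapped, and no difference passed, at 0.11 ± 0.15 (SE, adjusted p = 0.712) in ERalphaKO-labelled, -0.26 ± 0.15 (adjusted p = 0.301) in ERbetaKO-labelled and 0.37 ± 0.15 (adjusted p = 0.106) between the groups labelled as knockouts. Igfbp2 is read by 1 probe set.

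Igfbp5, the neighbour of Igfbp2 with 0 protein-coding genes between them in RefSeq, is a binding protein found in neurons and glia. Its wild type signals were 2239, 2599 and 1859 in females and 2034, 2342 and 1484 in males. The ERalphaKO-labelled signals were 1925, 1571 and 1804 in females and 2139, 2016 and 1977 in males. The ERbetaKO-labelled signals were 1693, 1619 and 1510.5 in females and 1387, 1638 and 1362 in males. Of the 6 ERbetaKO-labelled values, 2 lay below the lowest wild type value, that of the third male, and the other 4 lay between it and the next. Igfbp5 fell by 0.42 ± 0.10 (SE, adjusted p = 0.0233) in ERbetaKO-labelled brains, by 0.45 in females and 0.38 in males. The differences between ERalphaKO-labelled brains and wild type (-0.12 ± 0.10, adjusted p = 0.531) and ERbetaKO-labelled brains (0.30 ± 0.10, adjusted p = 0.0574) did not pass.

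The Igfbp5 call rested on several arrays. It was lost without the second wild type female (-0.36, adjusted p = 0.0520), the second wild type male (-0.35, adjusted p = 0.0547) or the first ERbetaKO-labelled male (-0.40, adjusted p = 0.0603), and with the Actb ratio as covariate (-0.37, adjusted p = 0.343). In wild type, arrays with strong Pcp2 read 2034 to 2599 and those with weak Pcp2 1484 and 1859, while the ERbetaKO-labelled ranges were 1362 to 1693 and 1387 to 1619. The second Igfbp5 probe set ran the other way, with means of 1119 ± 172 (SD, n = 6) in wild type and 1255 ± 189 in ERbetaKO-labelled arrays, a difference of 0.16 ± 0.11 (SE, adjusted p = 0.462). By its suffix, the probes of the first (1452114_s_at) may also match transcripts of more than 1 gene. The fall therefore belongs to that probe set and not to every Igfbp5 transcript measured.

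Ntrk2 encodes TrkB, the receptor for brain-derived neurotrophic factor, whose full-length form signals in neurons and whose truncated form predominates in astrocytes. Its wild type signals were 4105, 3899.6 and 4153 in females and 3814, 3381 and 4630.0 in males. The ERalphaKO-labelled signals were 3663, 3417 and 3239 in females and 3628, 3565 and 3927 in males, and the ERbetaKO-labelled ones 3515, 3471 and 3660.3 in females and 3345, 3274 and 3999 in males. The groups overlapped, the second wild type male at 3381 lying among the values of the other groups, and the order of the means was wild type, ERalphaKO-labelled, ERbetaKO-labelled. The differences were -0.16 ± 0.07 (SE, adjusted p = 0.220) in ERalphaKO-labelled and -0.17 ± 0.07 (adjusted p = 0.170) in ERbetaKO-labelled brains, and 0.01 ± 0.07 between them. None of the 8 Ntrk2 probe sets passed in any of the 3 genotype comparisons.

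Ntrk3 encodes TrkC, the receptor for neurotrophin-3. Its first probe set read 1332 to 1647 in wild type (median 1444), 1204 to 1530.1 on ERalphaKO-labelled (median 1344) and 1294 to 1575 on ERbetaKO-labelled arrays (median 1424). The ranges overlapped, with 3 of the 6 ERalphaKO-labelled values below the lowest wild type value, and the differences were -0.09 ± 0.08 (SE, adjusted p = 0.499) and -0.02 ± 0.08 (adjusted p = 0.912). A further 3 of its 8 probe sets, all of lower signal, did differ between genotypes. They were tested in a fit of all probe sets, in which 4.72% passed in ERalphaKO-labelled, 3.59% in ERbetaKO-labelled brains and 9.43% between them.

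The Ntrk3 probe set 1447723_at read 283, 232 and 413 in wild type females and 328, 337 and 256 in males. It read 33.8, 50.0 and 110.1 in ERalphaKO-labelled females and 58.1, 55.8 and 57.9 in males, and 128, 102 and 76.5 in ERbetaKO-labelled females and 140.4, 115 and 122 in males. Every value of both groups labelled as knockouts lay below every wild type value. Of the genes tested, 4.65% separated ERalphaKO-labelled and 4.06% ERbetaKO-labelled from wild type arrays, in either direction. The share over all probe sets, and the share separated in both comparisons, were not counted. The differences were -1.58 ± 0.15 (SE, adjusted p = 4.11e-05) in ERalphaKO-labelled and -1.06 ± 0.15 (adjusted p = 0.00176) in ERbetaKO-labelled brains, and these comparisons share the wild type arrays. It was also lower in ERalphaKO-labelled than in ERbetaKO-labelled brains, by -0.53 ± 0.15 (adjusted p = 0.0405), though their values overlapped. That call passed in 11 of 26 alternatives and was lost without any of 10 arrays (adjusted p up to 0.101). With signals near the pseudocount the log2 difference understates the change. The ERbetaKO-labelled difference did not pass with the Actb ratio as covariate (-1.06, adjusted p = 0.107) or on the 11 arrays with strong Pcp2 (-0.93, adjusted p = 0.101).

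Against wild type, the other 2 Ntrk3 probe sets that differed passed in the other direction. The signals of 1426003_at, which lies under the filter, were 104 to 127 in wild type, 57.2 to 103 on ERalphaKO-labelled and 139 to 200.4 on ERbetaKO-labelled arrays, so that the 3 groups did not overlap. How many probe sets separate all 3 groups was not counted. Of the genes tested, 4.65% separated ERalphaKO-labelled and 4.06% ERbetaKO-labelled from wild type arrays, and 5.85% the groups labelled as knockouts. It was higher by 0.40 ± 0.11 (SE, adjusted p = 0.0486) in ERbetaKO-labelled brains, while the difference of -0.28 ± 0.11 in ERalphaKO-labelled brains did not pass (adjusted p = 0.146). The former call passed in 5 of 26 alternatives, was lost without any of 16 arrays (adjusted p up to 0.0974), and fell to 0.18 (adjusted p = 0.722) with the Actb ratio as covariate. Between the groups labelled as knockouts 1426003_at was lower in ERalphaKO-labelled brains, by -0.68 (adjusted p = 0.002652), and passed in 24 of 26 alternatives. The exceptions were the Actb ratio (adjusted p = 0.0619) and strong Pcp2 only (adjusted p = 0.07015). The signals of 1425070_at were 24.5 to 44.9 in wild type, under the pseudocount, and 118, 140.3 and 89.9 in ERalphaKO-labelled females against 37.6, 61.5 and 34.0 in ERalphaKO-labelled males. It was higher by 0.55 ± 0.12 (adjusted p = 0.0130) in ERalphaKO-labelled brains, with the 3 females above every other array. On the 11 arrays with strong Pcp2 this did not pass (0.49, adjusted p = 0.111). The test of that sex dependence gave 0.67 with an unadjusted p of 0.00983 and did not pass (adjusted p = 0.693). The sources used here do not say which Ntrk3 transcripts or parts of the gene these probe sets read.

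**Figure D4:**
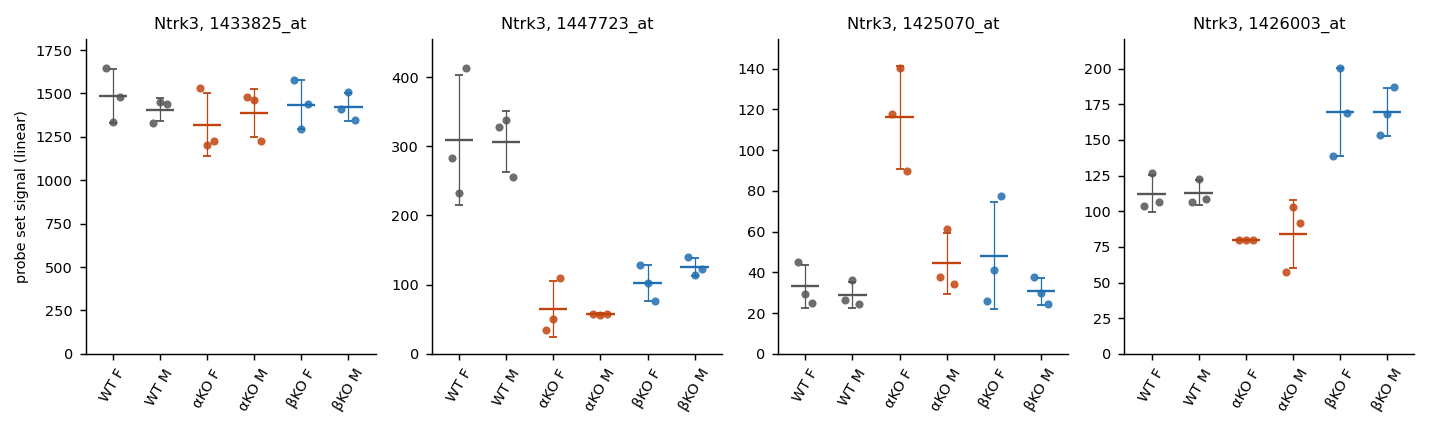
Signals of 4 Ntrk3 probe sets on each of the 18 arrays (linear axes from 0, arbitrary units), by labelled genotype and sex; points are arrays and bars are the mean and SD of the 3 arrays of a group. The first probe set, 1433825_at, has overlapping ranges in all genotypes (1204 to 1647 over all arrays), whereas 1447723_at reads 232 to 413 in wild type, 33.8 to 110.1 on ERalphaKO-labelled and 76.5 to 140.4 on ERbetaKO-labelled arrays.

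Vegfa, the main ligand that drives the growth of blood vessels, had signals of 619.5 to 1253 in wild type (median 863), 730.1 to 1103 on ERalphaKO-labelled (median 968) and 662 to 945 on ERbetaKO-labelled arrays (median 883). The ERbetaKO-labelled values fell wholly within the wild type range, which the first wild type female widened at 1253. The differences were 0.06 ± 0.13 (SE, adjusted p = 0.816) and -0.02 ± 0.13 (adjusted p = 0.930). Its second probe set gave 0.21 and 0.16, neither past the threshold.

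No difference between the sexes passed among the 10 genes. In limma 0 of them passed the comparison of females with males, in which 0.0306% of all genes did, and 0 had an unadjusted p under 0.05. Of all 13072 genes 0 passed, in limma, either test of whether the genotype difference depended on sex, with 673 genes at an unadjusted p under 0.05 for ERalphaKO-labelled and 442 for ERbetaKO-labelled brains. Among the 10, Igf1r alone had an unadjusted p under 0.05 in these, as given above.

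The wider pathways were read from a list of 118 further genes, of which 103 were on the array and 87 were tested. In ERalphaKO-labelled brains 1 rose and 4 fell, together 5.75% beside 6.7% of all genes. In ERbetaKO-labelled brains 1 rose and 7 fell, 9.2% beside 7.5%. Between the groups labelled as knockouts 6 were higher and 10 lower in ERalphaKO-labelled brains, 18.4% beside 15.4%. The median log2 differences of the 87 genes were -0.01, 0.02 and -0.02, beside -0.03, 0.01 and -0.02 over all genes.

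Among ligands, Vegfb, which supports vessels and metabolism, fell in ERbetaKO-labelled brains from 1673 ± 90.6 to 1059 ± 154 (SD, n = 6 each), by 0.64 ± 0.08 (SE, adjusted p = 0.000715), with all 6 values below wild type. The call held in all 29 alternatives. It was the 1 of 3 vascular endothelial growth factor ligands that passed. Of 6 further fibroblast growth factor ligands 0 passed in ERbetaKO-labelled brains by limma, 1 having an unadjusted p under 0.05. In ERalphaKO-labelled brains Fgf22, an organiser of synapses, fell from 318 ± 46.5 to 217 ± 28.3 (adjusted p = 0.0372), a call lost when any of 9 arrays was left out (adjusted p up to 0.0864). The Fgf22 call was also lost with the Actb ratio as covariate (adjusted p = 0.07338) and with strong Pcp2 only (adjusted p = 0.08861). Fgf10 was lower in ERalphaKO-labelled than in ERbetaKO-labelled brains, by -0.51 ± 0.14 (SE), a call lost without any of 5 arrays. It did not pass with the Actb ratio (adjusted p = 0.2533) or with strong Pcp2 only (adjusted p = 0.0512). Fgf11, 1 of 4 intracellular homologous factors that do not act as secreted ligands, fell in ERbetaKO-labelled brains from 586 ± 89.4 to 416 ± 68.4 (adjusted p = 0.0437), a call lost without any of 12 arrays. The Fgf11 call did not hold with the Actb ratio (adjusted p = 0.2415), strong Pcp2 only (adjusted p = 0.07518) or no filter (adjusted p = 0.05929). Of the neurotrophins, Bdnf alone was tested and did not pass, at 0.01 (adjusted p = 0.982) and 0.37 (adjusted p = 0.0725). Igf2, a ligand of Igf1r, differed by -0.36 ± 0.17 in ERbetaKO-labelled brains (adjusted p = 0.196).

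Among receptors and co-receptors, Fgfrl1, a fibroblast growth factor receptor without a kinase domain, fell in ERalphaKO-labelled brains from 1430 ± 109 to 1044 ± 78.3 (SD, n = 6 each), by 0.43 ± 0.07 (SE, adjusted p = 0.00361), with all 6 values below wild type, a call lost on the 11 arrays with strong Pcp2 (adjusted p = 0.0788). Flrt2, a membrane protein that binds fibroblast growth factor receptors, rose in ERbetaKO-labelled brains from 1105 ± 220 to 1582 ± 256 (adjusted p = 0.0245), and Fgfbp3, which carries fibroblast growth factors, fell from 337 ± 59.6 to 256 ± 23.0 (adjusted p = 0.0449). These calls were lost without any of 5 and 14 arrays. Neither passed with the Actb ratio as covariate (adjusted p = 0.228 for Flrt2 and 0.1925 for Fgfbp3) or with strong Pcp2 only (adjusted p = 0.0530 and 0.2197). The Fgfbp3 call passed in 8 of 29 alternatives. Fgfr4 was lower in ERalphaKO-labelled than in ERbetaKO-labelled brains, at 244 ± 35.4 against 423 ± 82.5, by -0.65 ± 0.11 (adjusted p = 0.00298). Fgfr3, the receptor typical of astrocytes, did not pass in any genotype comparison, at -0.23, -0.34 and 0.11. Kidins220, a scaffold of neurotrophin receptors, fell in ERbetaKO-labelled brains from 4744 ± 157 to 3592 ± 213, by 0.40 ± 0.05 (adjusted p = 0.000766), with all 6 values below wild type and below the ERalphaKO-labelled ones. It did not pass with the Actb ratio as covariate (-0.38, adjusted p = 0.0796) or on arrays with strong Pcp2 (-0.33, adjusted p = 0.0808). Sort1, on the list of neurotrophin receptors and co-receptors, was lower in ERalphaKO-labelled than in ERbetaKO-labelled brains, by -0.39 ± 0.11. The Sort1 call was lost without any of 7 arrays and with the Actb ratio (adjusted p = 0.1802). Of 5 vascular endothelial growth factor receptors 0 passed against wild type in limma (2 with an unadjusted p under 0.05 for the ERalphaKO label and 0 for the ERbetaKO label), with Kdr at -0.40 (adjusted p = 0.0555) in ERalphaKO-labelled brains and lower there than in ERbetaKO-labelled ones by -0.48 ± 0.12 (adjusted p = 0.0179), or -0.51 with the Actb ratio, which did not pass (adjusted p = 0.0950).

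Among the 7 further binding proteins and their regulators, Igfbp7 fell in ERbetaKO-labelled brains from 968 ± 85.1 to 708 ± 104 (SD, n = 6 each), by 0.43 ± 0.09 (SE, adjusted p = 0.0145), with all 6 values below wild type. With the Actb ratio as covariate the difference was -0.19 (adjusted p = 0.585), and on arrays with strong Pcp2 it was -0.46 (adjusted p = 0.107), neither past the threshold. Igfbp7 binds insulin-like growth factors weakly and is found in blood vessels. Igfbp6 was lower in ERalphaKO-labelled than in ERbetaKO-labelled brains, at 922 ± 338 against 1391 ± 129 (adjusted p = 0.0236), as was the secreted protein gene Stc1, at 248 ± 24.4 against 339 ± 23.3 (adjusted p = 0.00699). The Igfbp6 call was lost without the third ERalphaKO-labelled female or the first or the second male of that label (adjusted p up to 0.0651). The Stc1 call was lost with the Actb ratio (-0.31, adjusted p = 0.101) and with strong Pcp2 only (-0.42, adjusted p = 0.0570).

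Inside the cell, 0 of 13 adaptors and 0 of 10 feedback regulators passed against wild type in either comparison by limma. At an unadjusted p under 0.05 there were 2 adaptors and 1 feedback regulator for the ERalphaKO label, and 2 of each for the ERbetaKO label. The adaptor gene Irs2 was higher in ERalphaKO-labelled than in ERbetaKO-labelled brains, at 320 ± 51.8 against 185 ± 59.8 (SD, n = 6 each), by 0.65 ± 0.13 (SE, adjusted p = 0.00552). It did not pass with the Actb ratio (0.49, adjusted p = 0.106) or on arrays with strong Pcp2 (0.57, adjusted p = 0.0597). Spry2, a feedback inhibitor, gave -0.17, -0.04 and -0.13 and passed in none of the 3. Il17rd, also among the feedback regulators, was lower in ERalphaKO-labelled than in ERbetaKO-labelled brains, by -0.40 ± 0.12. The Il17rd call was lost without any of 7 arrays and with the Actb ratio (adjusted p = 0.3654). Strong Pcp2 only (adjusted p = 0.09827) and quantile scaling (adjusted p = 0.07472) also ended it. Of 15 genes of the PI3 kinase, AKT and mTOR branch, Tsc1 rose (adjusted p = 0.0160) and Akt2 and Gsk3b fell (adjusted p = 0.00745 and 0.0430) in ERalphaKO-labelled brains, the last call lost without any of 12 arrays. The Gsk3b call was lost too with the Actb ratio (adjusted p = 0.07835) and with strong Pcp2 only (adjusted p = 0.2138). Tsc1 and Tsc2 together restrain mTOR. Tsc1 went from 743 ± 44.2 to 928 ± 62.0 and Akt2 from 1710 ± 155 to 1251 ± 192. On arrays with strong Pcp2 the Tsc1 call was lost (adjusted p = 0.122). In ERbetaKO-labelled brains Tsc2 fell from 1535 ± 132 to 1252 ± 50.1 (adjusted p = 0.0440). Map2k2, the 1 of 5 MAP kinase cascade genes that passed, fell there from 904 ± 117 to 652 ± 118 (adjusted p = 0.0282). These calls were lost without any of 12 and 4 arrays, that of Map2k2 also with only the groups compared (adjusted p = 0.0596). The Tsc2 call passed in 12 of 29 alternatives. It was lost with the Actb ratio (adjusted p = 0.3413) and with strong Pcp2 only (adjusted p = 0.2833). Quantile scaling, no filter and the replicate block also ended the Tsc2 call (adjusted p = 0.06295, 0.05318 and 0.05941).

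**Figure D5:**
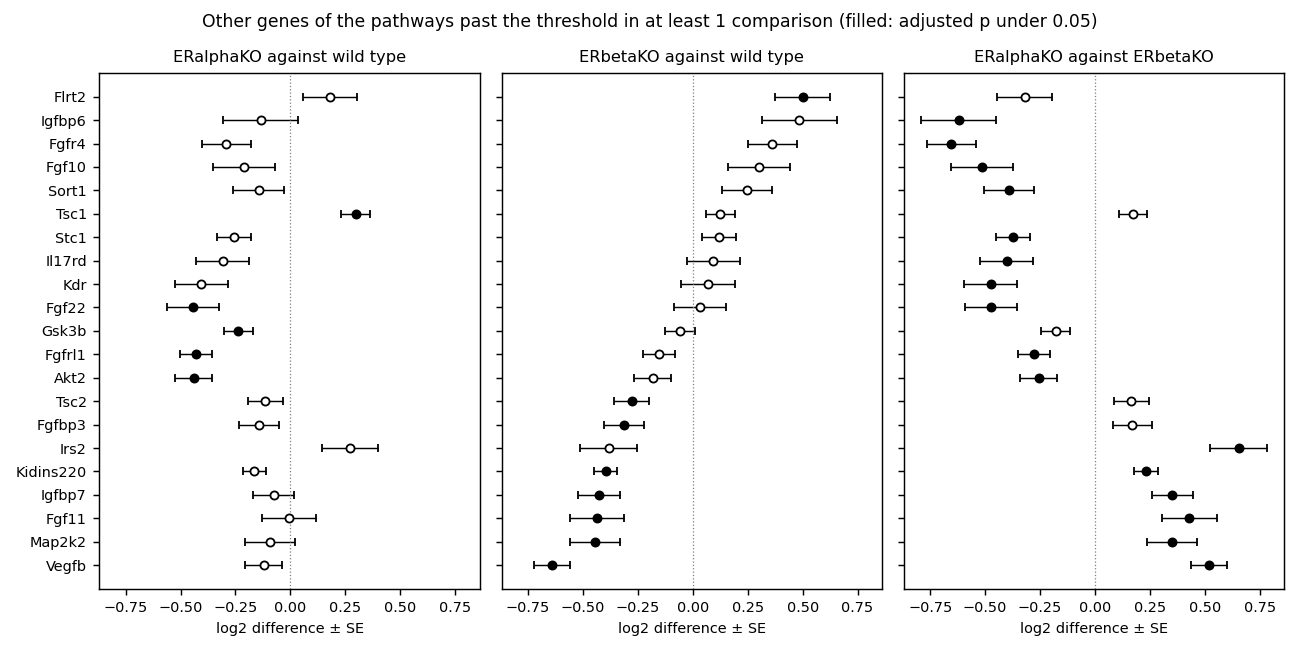
Log2 differences of the 21 further pathway genes that passed in at least 1 of the 3 genotype comparisons, with their SE as bars; filled points passed the threshold. In ERbetaKO-labelled brains Vegfb (-0.64) and Kidins220 (-0.40) are below 0 and Flrt2 (0.50) is above; in ERalphaKO-labelled brains Tsc1 (0.30) is above and Fgfrl1 (-0.43) and Akt2 (-0.44) are below.

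Markers of several cell types moved with the ERbetaKO-labelled group, where 4.58% of all genes fell and 2.91% rose. Of 12 astrocyte markers 2 fell there, Gfap and Slc7a10, and the list's median difference was -0.25, with summed signals of 49048 to 69994 against 61955 to 70765 in wild type. Of 8 oligodendrocyte precursor markers 3 fell, with summed signals of 6999 to 9727 against 9496 to 12122, and of 9 oligodendrocyte markers 1 fell, with 32544 to 52216 against 38423 to 54957. Of 10 microglial markers Cx3cr1 fell (summed signals 10925 to 14091 against 11154 to 17380), of 8 endothelial markers Cldn5 fell (5020 to 5610 against 5802 to 6322), and of 7 mural cell markers Rgs5 and Abcc9 rose (5703 to 6686 against 5175 to 6282). In ERalphaKO-labelled brains, where 3.63% of all genes fell, Aldoc among the astrocyte, C1qa and Ctss among the microglial and Cldn5 among the endothelial markers fell, with summed signals of 50389 to 62978, 10888 to 13181 and 5126 to 5760 for these lists. Of 5 Purkinje and 7 granule cell markers of the cerebellum 0 passed in limma, and 0 had an unadjusted p under 0.05, although their medians were -0.66 and -1.06 and their summed signals ran from 5660 to 35107 and from 2208 to 40253 within the ERbetaKO-labelled group alone. All 12 immediate early genes, which neurons switch on when they fire, rose in ERbetaKO-labelled and 11 of 12 in ERalphaKO-labelled brains. No marker of these lists had a mean signal over all arrays under the pseudocount. The part of these differences in the values of Fgfr1, Igfbp5 and the other growth factor genes was not tested beyond the covariates given above.

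Over the 18 arrays Fgfr1 was most like Itprid2 and Vasp (Pearson r = 0.929 each), Fgf1 most like Gng11 and Cmtm5 (0.952 each), Igfbp5 most like Lcat (0.919) and Selenon (0.907), and Ntrk2 most like Cst3 (0.913) and Rpl13a (0.892). Fgfr2 was most like Tlr9 (0.866) and Ing5 (0.859), Igf1r most like Gm20052 (0.855) and Lcp2 (0.798), and Igf1 most like Dlx2 (0.819) and Fbxw9 (0.803). For Igfbp2, Ntrk3 and Vegfa the highest values were 0.794, 0.790 and 0.794, with Tor4a, Cblb and Speg. Among the 10 genes themselves the highest correlations were those of Fgfr1 with Igfbp5 (0.833) and with Fgf1 (0.753), and the lowest that of Fgf1 with Igf1r (-0.531). These are descriptions over arrays that also differ in genotype, cerebellar signal and Actb ratio.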

How the data were processed

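Biotin-labelled RNA of 18 whole-brain samples was read on Affymetrix mouse expression arrays, per the labels. The authors deposited intensities on a linear scale, made with MAS5 per the submitters' processing notes. Its version is not given in the sources used here. All deposited columns had a 2% trimmed mean of 500. No detection calls were used. Gene symbols came from the platform annotation, brought up to date through RefSeq (GRCm38.p6).

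Signals were analysed as log2(signal + 63.6), where the added value is the 25th percentile over non-control probe sets. Each of 18193 genes was represented by its probe set of highest mean log2 value. A gene was tested if that mean reached the 40th percentile of all probe sets (7.58), which left 13072. The model, fitted in limma 3.58.1 (R 4.3.3), had 6 group means, an intensity trend and 12 residual degrees of freedom, and its genotype contrasts averaged the sexes. Benjamini-Hochberg adjustment ran over all genes, with a threshold of 0.05. Further probe sets of a gene were tested in a fit of all 45037. The fit was tested on simulated data. Python 3.11.15 and matplotlib 3.10.9 drew the figures.

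The genes and lists were chosen with earlier results of these data known. Named were the 10 genes by their first probe set; for each pathway list, up to 4 genes that passed with the smallest adjusted p in a genotype comparison, and 1 that did not where none passed; the 2 genes most like each of the 10; cell markers beside results; and Esr1 and Esr2. Genes and probe sets named beyond this were chosen after their values were seen. The alternatives were other pseudocounts, quantile scaling, other filters, other probe sets, array weights, a fit of the compared groups alone, a replicate block, a cerebellar score or the Actb ratio as covariate, arrays with Pcp2 of at least 500, and each array left out.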

Additional observations from a re-analysis of the deposited data

How the results depend on the processing

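Quantile scaling and other pseudocounts turned no call of the 10 genes. Fgfr1 in ERbetaKO-labelled against wild type brains passed in 28 of 29 alternatives (-0.97 to -0.74), Igfbp5 in 24 of 29, and Fgfr1 and Fgfr2 between the groups labelled as knockouts in 28 of 29 each. These counts are for the first probe set of each gene. The exception for Fgfr1 and Fgfr2 among them was the Actb ratio as covariate, with which 0 of the 10 genes passed in either comparison (adjusted p = 0.112, 0.0591 and 0.0594). With only the groups compared, 1 of the 10 passed in ERbetaKO-labelled brains. Leaving out each array gave 1 to 3 genes there and 2 to 3 between the groups labelled as knockouts. Fgfr2 in ERbetaKO-labelled brains passed with array weights (0.39), with the cerebellar score (0.40), on arrays with strong Pcp2 (0.64) and without the third wild type female (0.49). With another probe set in its place, Fgfr1 was not past the threshold in ERbetaKO-labelled brains (adjusted p = 0.0554 and 0.254), and between the groups labelled as knockouts it passed with 1424050_s_at and not with 1436551_at (adjusted p = 0.299). Of the 29 other probe sets, 15, 17 and 10 had the opposite sign to the first in ERalphaKO-labelled brains, in ERbetaKO-labelled brains and between them, 1 past the threshold each time. Where either of the pair was past the threshold, the opposed values were those of Igfbp5 1422313_a_at (0.16) and Ntrk3 1426003_at (0.40) in ERbetaKO-labelled brains, of Ntrk3 1425070_at in ERalphaKO-labelled brains (0.55), and of Fgfr2 1420847_a_at (0.050) and 1443211_at (0.034) and Ntrk3 1425070_at (0.44) between the groups labelled as knockouts.

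Over all genes, the counts past the threshold in ERalphaKO-labelled brains, in ERbetaKO-labelled brains and between them (876, 980 and 2010) became 1559, 1547 and 3827 with array weights and 423, 122 and 756 with the Actb ratio. On arrays with strong Pcp2 the first pair became 75 and 235, and with the cerebellar score the first became 1496. Leaving out each array gave 396 to 1082, 500 to 1068 and 1183 to 2248. Females against males gave 4 genes, and 2 with the stricter filter or with strong Pcp2 only. The sex dependence of the ERalphaKO difference gave 1 without the filter and 0 to 3 without each array, and that of the ERbetaKO difference 0 to 2. The share of calls that were higher moved between the groups labelled as knockouts from 40.7% to 51.6% with the stricter filter and with the Actb ratio. In ERbetaKO-labelled brains it moved from 38.9% to 20.5% with the Actb ratio and 22.1% with strong Pcp2, and in ERalphaKO-labelled brains from 45.8% to 61.3% with strong Pcp2. Why these counts moved was not tested.

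Replicate numbers were not used to pair the samples in the main fit. Deviations of same-numbered arrays correlated at -0.35 to 0.43 over 12 pairs, 5 of them over 0.1. Differently numbered arrays were not set beside them, so these values cannot decide whether the numbers pair samples. With the replicate block the counts were 730, 852 and 1827, and 2 of the 10 genes passed in ERbetaKO-labelled brains, Fgfr1 (-0.88, adjusted p = 0.00246) and Igfbp5 (adjusted p = 0.0178), and 3 between the groups labelled as knockouts, Igfbp5 being the third (adjusted p = 0.0415). Females against males kept a count of 4, and both tests of sex dependence a count of 0. Only the groups compared gave no separate fit for females against males, which uses all groups.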
